A study of Mus musculus with 2 samples.

Results

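The mitochondrial ribosomal protein genes were examined in OT-I CD8+ T cells with and without forced expression of Eomes, a T-box transcription factor. Members were chosen by symbol (Mrpl or Mrps followed by a number) and were selected on a level of at least 1 FPKM in control or Eomes-overexpressing cells. This gave 78 genes of the 14732 symbols listed for at least 1 library and of the 9925 expressed genes, which are those at 1 FPKM or more in either library. By symbol, 49 encode large subunit proteins (Mrpl) and 29 small subunit proteins (Mrps). FPKM is the number of fragments per kilobase of transcript scaled to the mapped total of the library. No symbol of the family was listed under 1 FPKM. The member nearest to that limit, *Mrpl17*, was at 10.2 FPKM in control and 10.1 FPKM in Eomes-overexpressing cells, so the limit removed nothing.

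OT-I mice carry a transgenic T cell receptor for the ovalbumin peptide SIINFEKL. Their CD8+ T cells, from mice 6 to 8 weeks old, had a first activation of 24 h in 2.5 ng/mL of this peptide together with 10 U/mL of IL-2. They then received a retrovirus encoding Eomes and human CD2, or the empty vector, which encodes human CD2 only (control). Human CD2+ cells were sorted 48 h later, and 40000 cells per well were restimulated for 3 days under the same doses before RNA was taken. Both conditions therefore share the OT-I receptor, activation, transduction and sorting, and differ in the *Eomes* insert, which the retroviral vector drives rather than the gene's own promoter. Each condition is 1 library, so no test between conditions was possible, and a log2 ratio compares these 2 libraries only.

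The 2 libraries were alike in size. They listed 14110 and 13966 genes, and the steps of the low FPKM values placed their depth at about 19200000 and 19150000 reads. *Eomes* was at 2.47 FPKM in control and 129.6 FPKM in Eomes-overexpressing cells, the order its label gives, although endogenous and retroviral transcripts cannot be told apart in a single value per gene. All 6 CD8+ T cell markers looked up were present, with summed levels of 9161 and 9201 FPKM, most of it *Gzmb* (8306 and 8563 FPKM). The receptor chain and co-receptor genes among them were lower in Eomes-overexpressing cells: *Cd8a* at 182 and 99.1 FPKM (log2 ratio -0.88), *Cd8b1* at 197 and 143 FPKM (-0.47), *Cd3g* at 264 and 196 FPKM (-0.43) and *Cd3e* at 145 and 123 FPKM (-0.24). The 2 CD4+ T cell markers summed to 0.12 and 0.15 FPKM, and B cell, myeloid, neutrophil and red cell markers to under 1 FPKM. The dendritic cell markers summed to 11.3 and 6.41 FPKM, nearly all of it *H2-Ab1*. Of the 2 NK cell markers looked up, *Klrb1c* was at 0.31 and 5.74 FPKM and *Ncr1* was listed in neither library. The part of other cells in the ratios below was not tested.

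Mitochondrial ribosomes translate the few messages encoded by mitochondrial DNA, all of which specify core subunits of the respiratory chain and ATP synthase. Their ribosomal RNAs come from the mitochondrial genome, but every protein of the particle is encoded in the nucleus, made in the cytosol and imported. Compared with bacterial ribosomes the particle has lost RNA and gained protein, so some of its proteins have bacterial counterparts and others are found only in mitochondria. The small subunit holds the decoding site and the large subunit joins the amino acids and anchors the ribosome to the inner membrane. Activated CD8+ T cells enlarge their mitochondria and depend on mitochondrial translation to sustain cytotoxicity, and damaged mitochondria are a known trait of exhausted T cells.

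Sequences just upstream of the start site are shown for 5 members, from RefSeq on GRCm38.p6: the member with the lowest log2 ratio, the one with the highest ratio, the one with the highest level, and a head-to-head pair in which 1 gene serves each subunit. *Mrps6* lies on the plus strand of chromosome 16 (gene 92058270 to 92112227), *Mrpl50* on the minus strand of chromosome 4 (49512596 to 49521093) and *Mrpl12* on the plus strand of chromosome 11 (120484613 to 120489065). *Mrpl46* (minus strand, 78775236 to 78783531) and *Mrps11* (plus strand, 78783119 to 78792989) lie back to back on chromosome 7, and their windows overlap. Each run is the 250 bases upstream of the start of the RefSeq entry, 5′ to 3′ on the strand of the gene. The gene spans are those of GENCODE M21 over all transcripts of a gene, so a window can lie partly or, for *Mrpl46*, wholly within the span. Capitals mark a match, on either strand, to the core bound by ETS factors, by YY1 or by NRF1, whose letters are given with the motif counts.
Mrps6 (chr16:92058086-92058335, plus strand): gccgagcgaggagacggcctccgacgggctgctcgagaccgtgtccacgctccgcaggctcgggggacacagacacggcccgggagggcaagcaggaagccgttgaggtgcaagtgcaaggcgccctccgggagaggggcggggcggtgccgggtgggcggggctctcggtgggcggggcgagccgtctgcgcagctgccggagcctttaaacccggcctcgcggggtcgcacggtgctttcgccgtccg
Mrpl50 (chr4:49521084-49521333, minus strand): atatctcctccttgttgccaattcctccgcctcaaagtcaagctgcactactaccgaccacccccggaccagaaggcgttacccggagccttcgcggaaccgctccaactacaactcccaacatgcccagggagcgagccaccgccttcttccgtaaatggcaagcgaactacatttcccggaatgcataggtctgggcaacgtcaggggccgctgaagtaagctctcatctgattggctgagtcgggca
Mrpl12 (chr11:120484387-120484636, plus strand): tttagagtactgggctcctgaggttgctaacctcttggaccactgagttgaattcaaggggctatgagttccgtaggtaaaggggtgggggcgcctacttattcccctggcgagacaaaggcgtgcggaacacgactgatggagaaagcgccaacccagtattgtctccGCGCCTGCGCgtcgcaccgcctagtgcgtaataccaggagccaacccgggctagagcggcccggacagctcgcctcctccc
Mrpl46 (chr7:78783090-78783339, minus strand): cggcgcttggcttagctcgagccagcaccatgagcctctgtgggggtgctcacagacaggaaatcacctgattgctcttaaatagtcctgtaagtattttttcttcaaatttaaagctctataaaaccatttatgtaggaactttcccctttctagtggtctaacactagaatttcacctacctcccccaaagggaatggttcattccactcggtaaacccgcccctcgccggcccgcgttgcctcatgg
Mrps11 (chr7:78782881-78783130, plus strand): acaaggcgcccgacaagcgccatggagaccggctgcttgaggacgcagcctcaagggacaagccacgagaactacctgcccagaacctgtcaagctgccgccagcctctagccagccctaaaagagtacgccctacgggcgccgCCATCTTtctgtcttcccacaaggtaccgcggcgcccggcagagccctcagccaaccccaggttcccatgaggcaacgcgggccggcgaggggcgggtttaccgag
Of these 5 windows, that of *Mrpl12* held 1 match to the NRF1 core and that of *Mrps11* held 1 match to the YY1 core, read on the opposite strand. The windows of *Mrps6*, *Mrpl50* and *Mrpl46* held none of the 3.

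In both libraries every member was well expressed. Large subunit genes had a median of 54.5 FPKM in control and 52.4 FPKM in Eomes-overexpressing cells, and small subunit genes had a median of 59.0 and 59.9 FPKM. For comparison, the median of all expressed genes was 12.8 FPKM in control and 13 FPKM in Eomes-overexpressing cells. Although the subunit proteins are built into the particle in single or few copies, the transcript levels of the large subunit spanned 22.3-fold in control and 23.4-fold in Eomes-overexpressing cells. Those of the small subunit spanned 11.7-fold and 10.7-fold. The order of the genes was nearly the same in the 2 libraries, with a Pearson r of 0.99 between log2 FPKM and a Spearman rho of 0.99 across the 78 genes, which are not independent replicates and share 2 libraries.

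The most abundant member was *Mrpl12*, whose protein forms the stalk that recruits translation factors and also binds the mitochondrial RNA polymerase, at 228 FPKM in control and 237 FPKM in Eomes-overexpressing cells. It was followed among large subunit genes by *Mrpl18*, which encodes a protein of the central protuberance, at 141 and 154 FPKM. The next were *Mrpl42* at 108 and 116 FPKM, *Mrpl33* at 105 and 109 FPKM and *Mrpl52* at 106 FPKM in both. At the other end were *Mrpl17*, then *Mrpl1* at 16.6 and 14.5 FPKM, *Mrpl19* at 15.1 and 16.3 FPKM, *Mrpl35* at 16.0 and 15.5 FPKM and *Mrpl50* at 14.4 and 17.4 FPKM. These 4 lay within a few FPKM of each other, and their order differed between the libraries. *Mrpl12* and *Mrpl18* held the first 2 places in both libraries.

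Among small subunit genes, *Mrps21* (129 and 120.2 FPKM), *Mrps16* (126 and 113 FPKM) and *Mrps18b* (115 and 114 FPKM) were the highest in both libraries, in that order in control. *Mrps18b* encodes 1 of 3 proteins related to bacterial S18 and stood level with *Mrps16* in Eomes-overexpressing cells within counting error. *Mrps6* (111 and 90.0 FPKM) and *Mrps26* (79.2 and 85.0 FPKM) came next by mean level. The lowest were *Mrps25* (11 and 11.2 FPKM), *Mrps31* (19.4 and 18.1 FPKM), *Mrps2* (27.7 and 30.1 FPKM), *Mrps22* (27.8 and 31.2 FPKM) and *Mrps14* (32.9 and 31.6 FPKM). The plot of levels in control against Eomes-overexpressing cells shows all 78 genes close to the line of equal levels.

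**Figure D1:**
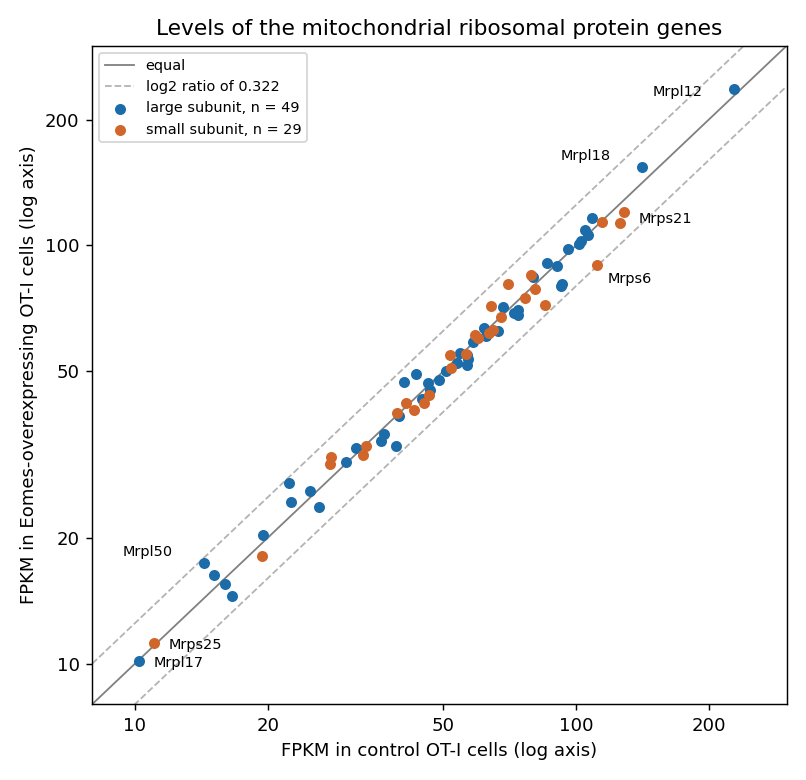
FPKM of each member in control (horizontal) and Eomes-overexpressing OT-I cells (vertical), both on log axes, with 49 large subunit genes in blue and 29 small subunit genes in orange. All 78 points lie between the dashed lines that mark a log2 ratio of 0.322 either way, from *Mrpl17* at about 10 FPKM to *Mrpl12* at 237 FPKM.

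Summed over the large subunit, the level was 2969.2 FPKM in control and 2969.8 FPKM in Eomes-overexpressing cells. Summed over the small subunit it was 1779.7 FPKM and 1737.9 FPKM, a log2 ratio of -0.03. Together the members made up 0.846% of all FPKM in control and 0.857% in Eomes-overexpressing cells. The summed output of the family thus differed little between the libraries on either scale.

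No member differed by more than 1.5-fold between the libraries in either direction. Of all expressed genes, 5.19% were more than 1.5-fold lower and 2.46% more than 1.5-fold higher in Eomes-overexpressing cells. At a smaller limit of 0.322 on the log2 scale the count was also 0 of 78, where 12.0% of all expressed genes were lower and 10.7% higher. Of the 5283 expressed genes within the members' range of mean FPKM, 13.6% passed the limit of 0.322 and 2.78% passed 1.5-fold. The greatest difference in the family was that of *Mrps6*, 1.24-fold lower.

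The 49 large subunit genes had a median log2 ratio (Eomes-overexpressing over control) of -0.01, with an interquartile range from -0.06 to 0.06. The 29 small subunit genes had a median of -0.03, with an interquartile range from -0.08 to 0.03. Log2 ratios were under 0 for 27 of 49 and 19 of 29 genes, respectively, where 50.5% of all expressed genes were under 0. Neither median kept its sign under every scaling: with each library divided by its summed FPKM, which moves all ratios by 0.03, the medians were 0.02 and 0.0039, and 20 of 49 and 13 of 29 genes were under 0. Centred on expressed genes of like transcript length, 14 and 12 genes were under 0, so the majority turned in both subunits. The median of all expressed genes was -0.0037, so both subunits lay within 0.03 of it.

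Within the family the ratios were close together. The SD across genes was 0.11 on the log2 scale for either subunit, against 0.29 for expressed genes in the same range of FPKM and 0.40 for all expressed genes. Counting error of a single ratio, from reads approximated by FPKM, transcript length and depth, had a median of 0.06 across the members. The approximated reads of a member ran from 290.0 to 6962, and all intervals below are exact binomial (Clopper-Pearson, 95%) and cover counting error only. The interval lay wholly under 0 for 6 large and 3 small subunit genes, and wholly above 0 for 7 large and 4 small subunit genes. Among all expressed genes it lay wholly under 0 for 24.2% and wholly above 0 for 24.6%.

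**Figure D2:**
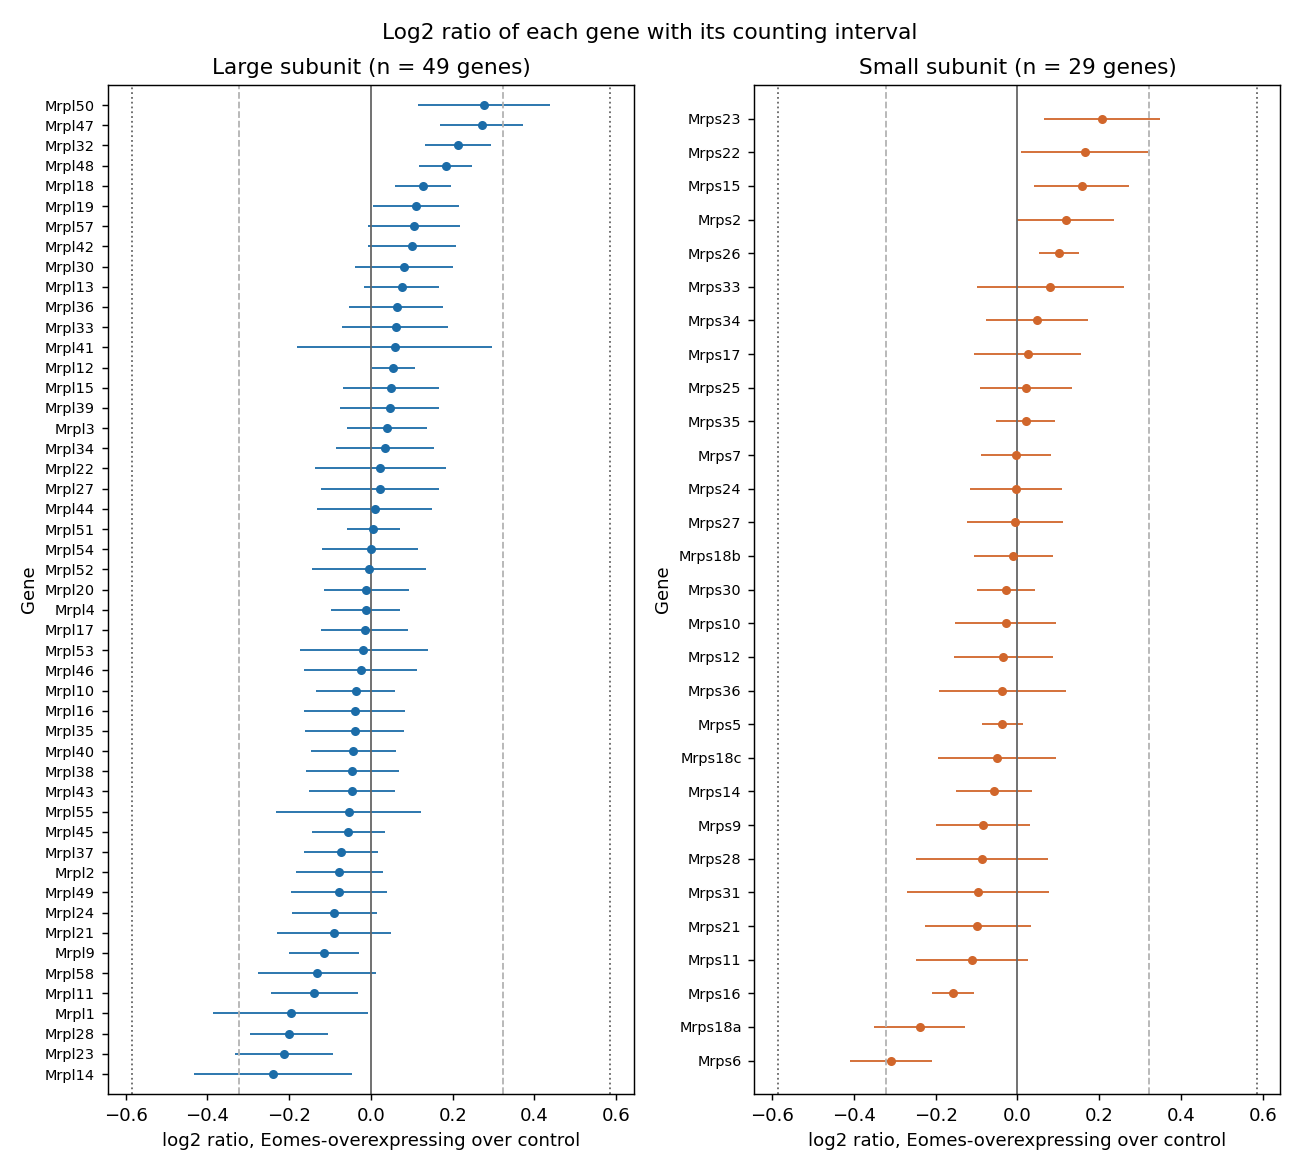
Log2 ratio of Eomes-overexpressing over control for each gene, sorted within the large subunit (left, 49 genes) and the small subunit (right, 29 genes). Bars are 95% Clopper-Pearson intervals on approximated reads, dashed lines mark a log2 ratio of 0.322 and dotted lines 1.5-fold. Points run from -0.24 (*Mrpl14*) to 0.28 (*Mrpl50*) at left and from -0.31 (*Mrps6*) to 0.21 (*Mrps23*) at right, and none passes a dashed line.

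Among large subunit genes the highest ratios were those of *Mrpl50*, at 14.4 FPKM in control and 17.4 FPKM in Eomes-overexpressing cells (log2 ratio 0.28, interval 0.12 to 0.44), and *Mrpl47*, at 22.4 and 27.0 FPKM (0.27, interval 0.17 to 0.37). *Mrpl47* encodes a protein near the exit of the nascent chain tunnel, while the *Mrpl50* protein is specific to mitochondria. They were followed by *Mrpl32* at 40.8 and 47.2 FPKM (0.21, interval 0.13 to 0.29), *Mrpl48* at 43.4 and 49.2 FPKM (0.18, interval 0.12 to 0.25) and *Mrpl18* (0.13, interval 0.06 to 0.20). The *Mrpl32* protein is matured by the m-AAA protease after import, a step on which assembly of the ribosome depends. For these 5 genes the interval lay above 0. Only *Mrpl18* of the 5 was also among the most abundant members.

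The lowest large subunit ratios were those of *Mrpl14*, at 39.1 FPKM in control and 33.1 FPKM in Eomes-overexpressing cells (-0.24, interval -0.43 to -0.05), *Mrpl23* at 92.6 and 79.9 FPKM (-0.21, interval -0.33 to -0.09), and *Mrpl28* at 93.0 and 80.9 FPKM (-0.20, interval -0.30 to -0.10). *Mrpl1* (-0.20, interval -0.39 to -0.01) and *Mrpl11*, at 26.1 and 23.7 FPKM (-0.14, interval -0.24 to -0.03), came next. The *Mrpl14* protein sits at the interface with the small subunit, and those of *Mrpl1* and *Mrpl11* lie in or beside the stalks at the flanks of the subunit. All 5 encode proteins with bacterial counterparts, and their intervals lay under 0.

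In the small subunit, *Mrps23* had the highest ratio, at 70.2 FPKM in control and 81.0 FPKM in Eomes-overexpressing cells (0.21, interval 0.07 to 0.35). *Mrps22* (0.16, interval 0.01 to 0.32), *Mrps15* at 64.3 and 71.7 FPKM (0.16, interval 0.04 to 0.27), *Mrps2* (0.12, interval -0.0014 to 0.24) and *Mrps26* (0.10, interval 0.05 to 0.15) followed. The proteins of *Mrps22*, *Mrps23* and *Mrps26* are specific to mitochondria, and inherited defects of *MRPS22* and *MRPS2* in people impair mitochondrial translation. The interval of *Mrps2* reached 0.

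*Mrps6* had the lowest ratio of the family, at 111 FPKM in control and 90.0 FPKM in Eomes-overexpressing cells (-0.31, interval -0.41 to -0.21). Its protein lies on the platform of the small subunit, where its bacterial counterpart pairs with S18. On its own strand, 36.1% of the exon bases of *Mrps6* overlap exons of *Slc5a3* and a gene model named Gm49711, so how reads were divided there could move its value. *Slc5a3*, a myo-inositol transporter gene, was listed at 1.18 and 1.19 FPKM. *Mrps18a* at 85.2 and 72.2 FPKM (-0.24, interval -0.35 to -0.13) and *Mrps16* (-0.16, interval -0.21 to -0.11) also had intervals under 0. Those of *Mrps11* at 45.3 and 42.0 FPKM (-0.11, interval -0.25 to 0.03) and *Mrps21* (-0.10, interval -0.23 to 0.03) included 0.

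Symbols do not always name the place of the protein. The products of *Mrps18a* and *Mrps30* are found in the large subunit, and that of *Mrps36* is a subunit of the 2-oxoglutarate dehydrogenase complex rather than of the ribosome. *Mrps30* was at 52.1 and 51.1 FPKM (-0.03, interval -0.10 to 0.04) and *Mrps36* at 63.5 and 61.9 FPKM (-0.04, interval -0.19 to 0.12). Sorted by place, the median log2 ratio was -0.0132 for 51 large subunit genes and -0.0084 for 26 small subunit genes, the opposite order to that by symbol. The lower median of the small subunit by symbol therefore rested in part on these genes, since *Mrps18a* and *Mrps36* lay under it and *Mrps30* was the middle gene.

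By origin of the protein, the large subunit showed no split: the median log2 ratio was -0.01 for 30 genes with bacterial counterparts and -0.01 for 20 mitochondrion-specific genes, with 16 and 12 genes under 0. *Mrps18a*, a large subunit protein related to bacterial S18, was put in neither group, whereas its relative *Mrps18b* was counted as mitochondrion-specific and *Mrps18c* as the bacterial counterpart. In the small subunit, 13 of 16 genes with bacterial counterparts were under 0 (median -0.04), as were 3 of 10 mitochondrion-specific genes (median 0.03). After the ratios were centred on genes of like GC content, 9 of 16 and 4 of 10 were under 0, with medians of -0.01 and 0.06. *Mrps34* (59.0 and 61.0 FPKM, 0.05), *Mrps33* (51.9 and 54.9 FPKM, 0.08) and *Mrps35* (39.3 and 39.9 FPKM, 0.02) were examples above 0 in the mitochondrion-specific group. These groups hold few genes and differ by less than the spread of single genes within them (SD 0.11 and 0.09), which is not the error of a median.

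Across transcripts, the ratio moved with base composition. Over the 9899 expressed genes with a reference transcript, the Spearman rho of log2 ratio with GC content was -0.44, and over the 49 large subunit genes it was -0.43. Over the 29 small subunit genes it was -0.11. All points share the same 2 libraries. In the large subunit, 25 genes at or under 50.9% GC had a median of 0.05 (9 under 0) and 24 genes above it a median of -0.03 (18 under 0). *Mrpl50* (42.3% GC), *Mrpl32* (42.2%), *Mrpl47* (45.3%) and *Mrpl48* (45.5%) stood on the low side, and *Mrpl14* (59.4%), *Mrpl23* (59.0%) and *Mrpl28* (58.2%) on the high side. The part of GC content in these ratios was not tested further.

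Centred on the median of expressed genes in 20 bins of GC content, the order of the members was different. *Mrpl50* went from 0.28 to 0.10, *Mrpl32* from 0.21 to 0.03 and *Mrpl14* from -0.24 to -0.13. By contrast, *Mrps23* went from 0.21 to 0.28, *Mrps15* from 0.16 to 0.25, *Mrps31* from -0.10 to -0.24 and *Mrps16* from -0.16 to -0.23. *Mrps6* went from -0.31 to -0.22 and was still among the members farthest from 0. Centring placed 2 genes past 0.322, *Mrpl1* at -0.42 and *Mrps14* at -0.34, since both have low GC content (41.4% and 39.6%) and lay under 0 where the median of expressed genes of like GC was about 0.23 and 0.28. After the same centring, 1738 of 9899 expressed genes lay past 0.322, as did 495 of 5272 within the members' range of mean FPKM. The subunit medians became 0.02 and -0.01.

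**Figure D3:**
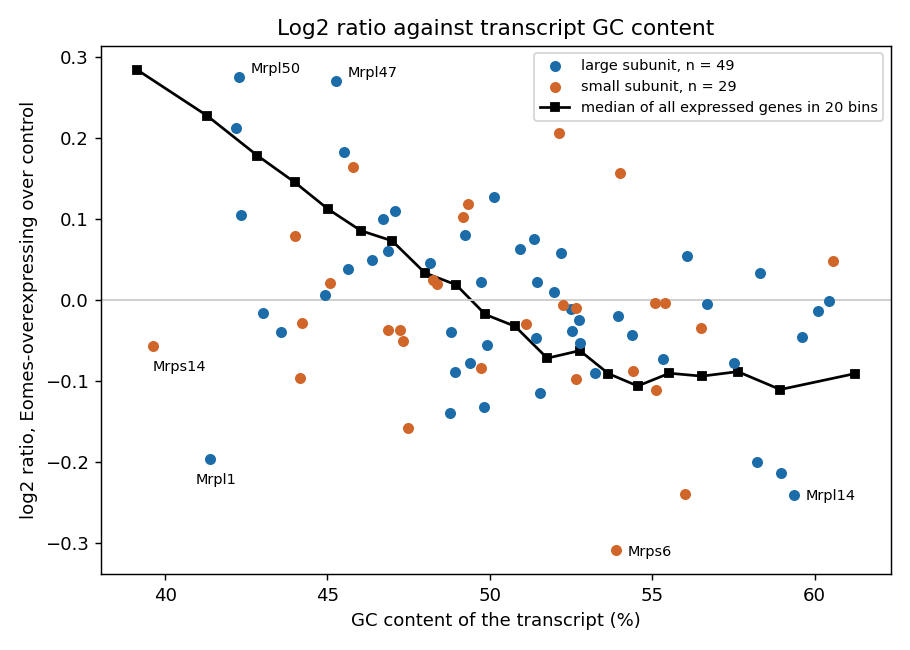
Log2 ratio of Eomes-overexpressing over control against the GC content of the transcript (%), for 49 large (blue) and 29 small (orange) subunit genes. The black line joins the medians of all expressed genes in 20 bins of GC content and runs from 0.28 at 39.1% to -0.09 at 61.2%, with *Mrpl1* and *Mrps14* well below it and *Mrpl50* near it.

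The other proteins needed for mitochondrial translation were described with 5 lists. Of 5 mitoribosomal proteins without an Mrp symbol, *Dap3*, a GTP-binding protein of the small subunit, was at 23.8 and 22.3 FPKM (-0.09), while *Ptcd3*, a small subunit protein with RNA-binding repeats, was at 33.4 and 40.2 FPKM (0.27, interval 0.17 to 0.36). The other 3, *Chchd1*, *Aurkaip1* and *Gadd45gip1*, lay between -0.06 and 0.02. After GC centring, *Ptcd3* was at 0.09. The median of the 5 was -0.01, with 3 under 0.

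Translation factors stood somewhat higher than the ribosomal proteins, with a median of 0.10 over 16 genes and 6 under 0. The highest were *Mtrf1l*, which encodes a release factor, at 2.75 and 3.70 FPKM (0.43, interval 0.09 to 0.75), and its relative *Mtrf1* at 3.19 and 3.98 FPKM (0.32, interval -0.05 to 0.70). *Guf1* was at 3.46 and 4.18 FPKM (0.27, interval -0.09 to 0.64), and *Lrpprc*, whose product stabilizes mitochondrial messages, at 25.8 and 30.7 FPKM (0.25). Of the initiation factor genes, *Mtif2* was at 9.27 and 10.8 FPKM (0.22). *Mtif3* was at 5.63 and 5.04 FPKM (-0.16, interval -0.43 to 0.12), the lowest ratio of the list. Nearer to 0 were the elongation factor genes *Tufm* at 151 and 141 FPKM (-0.10) and *Tsfm* at 41.3 and 38.9 FPKM (-0.08). *Gfm1*, also for elongation, was at 47.7 and 50.8 FPKM (0.09). After GC centring the median of the 16 was 0.04.

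The 20 genes for mitochondrial aminoacyl-tRNA synthetases and the glutamyl-tRNA amidotransferase had a median of 0.0054, with 10 under 0. They ranged from *Fars2* at 8.65 and 6.99 FPKM (-0.31, interval -0.65 to 0.04) to *Qrsl1* at 10.4 and 12.9 FPKM (0.32, interval 0.12 to 0.51). After GC centring the median of the 20 was -0.05, with 12 under 0. The 26 genes for ribosome assembly and ribosomal RNA modification had a median of -0.03, with 18 under 0. After GC centring the median of the 26 was 0.02, with 11 under 0. *Nsun4*, which encodes an RNA methyltransferase that acts in assembly with *Mterf4*, was at 6.23 and 4.32 FPKM (-0.53, interval -0.79 to -0.26), and *Mterf4* at 10.7 and 9.71 FPKM (-0.14, interval -0.39 to 0.11). *Tfb1m*, which encodes the methyltransferase of the small ribosomal RNA, was at 7.70 and 9.70 FPKM (0.33, interval 0.06 to 0.60).

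The last list, mitochondrial DNA transcription and maintenance, had a median of 0.04 over 11 genes with 5 under 0. It ranged from *Polg2*, the accessory subunit of the mitochondrial DNA polymerase, at 4.90 and 3.78 FPKM (-0.37, interval -0.75 to -0.01) to *Tfam*, the packaging and transcription factor of mitochondrial DNA, at 13.1 and 15.2 FPKM (0.22, interval 0.10 to 0.34). *Polrmt*, the RNA polymerase gene, was at 14.7 FPKM in both libraries. After GC centring the median of the 11 was -0.04, with 6 under 0. None of the genes on the 5 lists passed 1.5-fold, and 4 passed a log2 ratio of 0.322: *Nsun4*, *Polg2*, *Tfb1m* and *Mtrf1l*. They were 1 of 16 translation factors, 2 of 26 assembly genes and 1 of 11 genes of the last list. Of all expressed genes, 7.65% passed 1.5-fold and 22.7% passed 0.322 in either direction. *Mtrf1* (0.319) and *Qrsl1* (0.318) lay just inside that limit. After GC centring, *Nsun4* (-0.56) and *Mtrf1l* (0.35) were past 0.322, as were 1738 of 9899 expressed genes. *Tfb1m* (0.25) and *Polg2* (-0.31) then lay inside it. The 4 larger lists had lower median levels than the members, and median counting errors of 0.08 to 0.10.

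**Figure D4:**
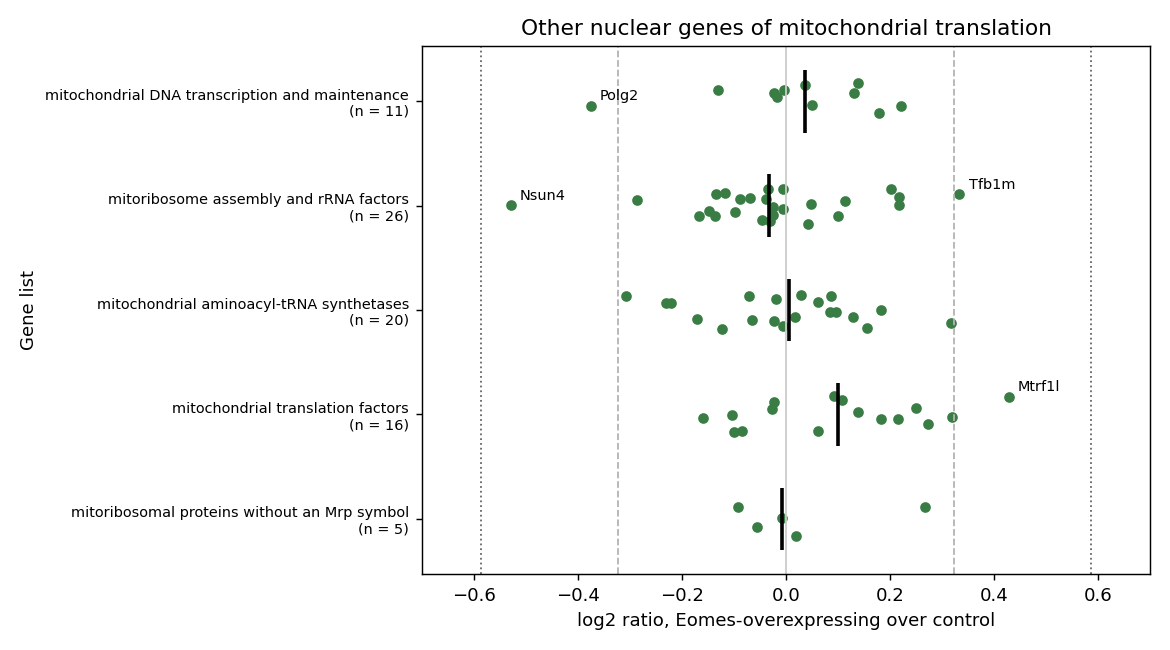
Log2 ratio of Eomes-overexpressing over control for each gene of the 5 lists of other nuclear genes of mitochondrial translation, with the median of each list as a black bar, dashed lines at a log2 ratio of 0.322 and dotted lines at 1.5-fold. Medians lie between -0.03 and 0.10, and the 4 genes past 0.322 are named.

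The members were next set beside the 2 gene sets most like them, the cytosolic ribosomal proteins and the nuclear-encoded respiratory chain and ATP synthase. Cytosolic ribosomal protein genes were far more abundant (median of 1501 FPKM in control) and had a median log2 ratio of -0.08, with 65 of 80 under 0 and an SD of 0.08. Respiratory chain genes had a median of -0.06, with 55 of 76 under 0 and an SD of 0.11, close to that of the mitoribosomal genes. The medians of the large and small subunits, -0.01 and -0.03, were nearer to 0 than either set. After GC centring the 4 medians were 0.02 (large), -0.01 (small), -0.04 (cytosolic) and -0.02 (respiratory chain). Counting intervals lay wholly under 0 for 59 and wholly above 0 for 7 of the 80 cytosolic genes, whose median counting error was 0.01. For the 76 respiratory chain genes the counts were 31 and 9, with a median counting error of 0.04. With no replicate, the differences between sets were not tested. Each is smaller than the SD within the mitoribosomal genes, which is the spread of single genes and not the error of a median.

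**Figure D5:**
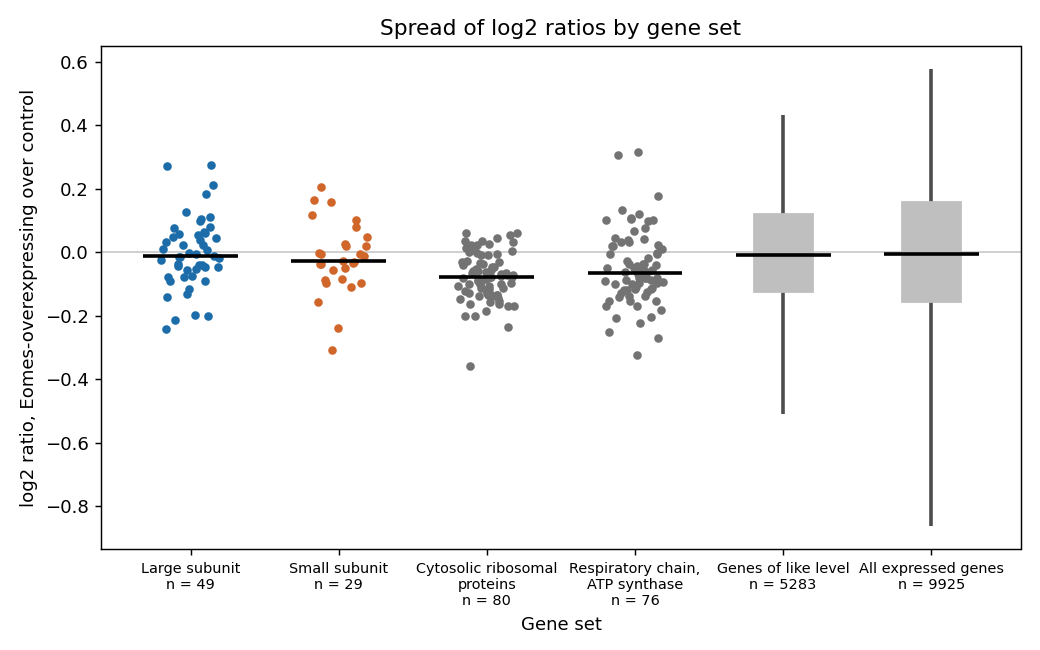
Log2 ratios of Eomes-overexpressing over control by gene set, with 1 point per gene and the median as a black bar for the large and small subunits, cytosolic ribosomal proteins and the respiratory chain with ATP synthase. For genes of like level (5283) and all expressed genes (9925), boxes span the quartiles and lines the central 95% of genes. All 4 gene sets lie within -0.36 to 0.32, while the central 95% of expressed genes runs from -0.86 to 0.58.

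Beyond their levels the members share features of gene structure. Their transcripts were short, with a median of 1253 bases against 2929 bases for all expressed genes, and their median GC content was 50.5% against 50.3%. Median lengths were shorter still for cytosolic ribosomal protein genes (795 bases) and respiratory chain genes (849.5 bases). The members lie on 17 chromosomes, with 11 on chromosome 11, the most on any 1 chromosome. A start site of another protein-coding gene lay head to head within 1000 bases for 19 of 78 members (24.4%), against 12.5% of all expressed genes, 15% of cytosolic ribosomal protein genes and 25% of respiratory chain genes. These were 13 large and 6 small subunit genes.

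The 19 genes form 18 pairs, since *Mrpl46* and *Mrps11* are partners of each other. For example, *Mrpl18* starts 37 bases from *Tcp1*, a subunit of the cytosolic chaperonin, *Mrpl32* starts 75 bases from *Psma2*, a subunit of the proteasome, *Mrpl43* starts 116 bases from *Twnk*, the mitochondrial DNA helicase, and *Mrps12* starts 232 bases from *Sars2*, the mitochondrial seryl-tRNA synthetase. Levels were close in some pairs and far apart in others. *Ptcd2* was at 30.2 and 33.2 FPKM beside *Mrps27* at 33.4 and 33.2 FPKM. *Psma2* was at 244 and 255 FPKM beside the 40.8 and 47.2 FPKM of *Mrpl32*, and *Zfp189*, beside *Mrpl50*, was at 0.46 and 0.91 FPKM. In 9 of the 16 pairs with an expressed partner the ratios had the same sign.

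Promoter windows of 300 bases (250 upstream and 50 downstream of the start) were matched for 69 members, 43 of the large and 26 of the small subunit, and for 7938 expressed genes. CCGGAAG, the core bound by ETS factors such as GABP, was present on either strand in 25 of 69 (36.2%, against 21.6% of expressed genes). AAGATGG, the core bound by YY1, was present in 13 (18.8%, against 8.19%), and the core bound by NRF1, which is GCGC followed by any base and TGCGC, in 13 (18.8%, against 12.1%). These shares were not particular to the members. CCGGAAG was in 39.0% of 59 windows of cytosolic ribosomal protein genes and 24.2% of 62 windows of respiratory chain genes. AAGATGG was in 15.3% and 14.5% of them, and the NRF1 core in 6.78% and 27.4%. GABP and NRF1 are known regulators of nuclear genes for mitochondrial proteins. GGGCGG, the core bound by SP1, was present in 33 (47.8%, against 67.9%), and the E-box CACGTG in 5 (7.25%, against 10.8%). Shares of CCAAT (39.1% against 39.3%) and TATAAA (5.80% against 6.31%) were close to those of all expressed genes.

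The letters of AGGTGTGA, a site bound by T-box factors, the family of Eomes, were in 0 of 69 member windows and in 0.794% of windows of expressed genes. This says only that these letters are not in these windows. Members with CCGGAAG had a median log2 ratio of 0.01 and those without it -0.04. Members with the NRF1 core, among them *Mrpl12*, *Mrpl14* and *Mrpl32*, had a median of 0.01 against -0.03 without it, and those with AAGATGG, among them *Mrps11* and *Mrps18a*, -0.01 against -0.02. These differences are smaller than the SD of 0.11 across the members, which is the spread of single genes and not the error of a median. They were not tested.

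Some member transcripts share bases with other genes. Exons of 19 members overlap exons of another protein-coding gene, 17 on the opposite strand and 2 (*Mrps6* and *Mrpl53*) on the same strand. *Mrpl53*, at 50.7 and 50 FPKM (-0.02), is wholly contained in the gene model Gm42688. Whether the counting used strand is not given in the sources used here, so overlapping reads may have been split either way. Without these genes and without those that share at least 20% of their stretches of 50 bases with other transcripts, 33 large and 18 small subunit genes were left, with medians of -0.01 and -0.02 and a range from -0.24 (*Mrps18a*) to 0.28 (*Mrpl50*).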

How the data were processed

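RNA of 1 control and 1 Eomes-overexpressing culture was sequenced by the authors. Reads were mapped to mm10 with HISAT and Bowtie2, and RSEM gave the values (submitters' processing notes and the study's methods). The values the authors deposited are FPKM, with 1 entry for each symbol in each library, 2 decimals and a lowest entry of 0.01. The methods call them RPKM and name no scaling between libraries. Some entries read as dates rather than symbols and were dropped (20 control entries and 19 Eomes-overexpressing ones).

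Values not listed were set to 0.01. Scripts in Python 3.11.15 gave log2 ratios, medians and counts past 1.5-fold and past 1.25-fold (0.322 on the log2 scale), with pandas 2.3.3 for tables, scipy 1.17.1 for intervals, numpy 2.4.6 for arithmetic and matplotlib 3.10.9 for plots. The members and lists were chosen with earlier results of these data known. Named genes were, per subunit, the 5 highest and 5 lowest by ratio and by mean FPKM, with *Mrps18a*, *Mrps30* and *Mrps36*. Members named for an overlap, a neighbour or a role, and genes of the lists, were picked after their values were seen.

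Transcripts were taken from GENCODE M21 (99.7% of expressed genes matched), the longest one linked to a curated RefSeq entry. Depth was read from whole-read steps in 379 and 366 low values of transcripts under 1500 bases, of which 74.7% and 75.7% lay within 0.2 reads of a whole number. Reads were FPKM times the shortest such transcript and depth. They are approximations, as RSEM may have used other lengths. The depth, the transcript choice, the 20% and 1000-base limits and the motifs (chosen after shares of more letter strings had been looked at) were set after seeing the data. Steps were tested on simulated data. There the intervals were given the simulated reads and the true depth, so the approximation of reads from FPKM was not tested. Alternatives were pseudocounts of 0.1 and 1, no minimum or 5 FPKM, folds of 1.25 and 2, scaling to summed FPKM, to a trimmed mean of log ratios or to the median, centring on GC content, length or level in 20 bins, and subunits by place.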

Additional observations from a re-analysis of the deposited data

How the results depend on the processing

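Counts of members past 1.5-fold were 0 under every alternative tried for that count, and 0 past a log2 ratio of 0.322 and past 2-fold. The exception was GC centring, after which 2 of 78 members passed 0.322, where 1738 of 9899 expressed genes did. Of 98 recomputed values, 94 kept a count within 1.5 times the reported one or a median within the order-statistic interval of the reported median over genes (-0.04 to 0.03 for the large and -0.06 to 0.02 for the small subunit). The other 4 came from centring on genes of like length, which gave medians of 0.0433 for the large and 0.0376 for the small subunit and left 14 and 12 genes under 0. The cause was not tested. Some of the 98 values could not change: no minimum or 5 FPKM kept every member, as the lowest was at 10.1 FPKM. No count past 2-fold could exceed the 0 past 1.5-fold. The order-statistic interval also treats genes as independent, and a median could change sign within it. The share of 94 of 98 therefore does not measure how robust the results are. Over 12 settings, which include the main one and repeats of it, the large subunit median ran from -0.01 to 0.04 (under 0 in 8). That of the small subunit ran from -0.03 to 0.04 (under 0 in 10). Both counts hold repeats, and neither sign is firm. The choice to leave out genes that share bases with others was made after seeing the data. Counting error limits single ratios to about 0.06 on the log2 scale, and differences between cultures of 1 condition are unknown. No paired analysis was possible because each condition has 1 library.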
